A study of Mus musculus with 4 samples.

Results

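Alveolar-rich spots are the places in lung sections of tumour-bearing mice where transcripts of the alveolar epithelium take their highest share of all transcripts. In each of 2 lung sections, spots with more than 200 genes were ranked by a score. The score is the share of a spot's unique molecular identifiers (UMIs, counted transcript molecules) on Sftpc, Sftpa1, Sftpd, Lamp3, Ager, Hopx and Rtkn2. Sftpb, the remaining gene of the 8 in the rule, was not analysed here. The top 10% of the spots of a section were taken, which gave 170 of 1697 spots in the lung of animal A and 278 of 2780 in the lung of animal B. Together these are 448 of 4477 lung spots and of 9339 spots in all 4 sections. They were compared with the lowest 50% by the same score, called low-score spots (848 and 1390), and counts were summed per section before any test.

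Both animals, here called A and B in the order of their label numbers, were BALB/c mice injected in the mammary fat pad at 8 weeks of age with 100000 4T1 cells, a mouse mammary cancer line, and killed 28 days later. No lung of an animal without a tumour was analysed here, so every value belongs to a tumour-bearing lung. The lungs and primary tumours were fixed, embedded in paraffin and profiled by 10x Visium, in which probe pairs for mouse genes are read out on an array of spots. Each spot covers a patch of tissue with more than one cell, often of several types, and in such a patch fewer cells of a type and less RNA per cell cannot be told apart. Depth was 11122812 UMIs in the lung of animal A and 30240176 in that of animal B, of which the alveolar-rich spots held 1250998 and 2799117 UMIs and the low-score spots 5417054 and 17650088. Alveolar-rich spots held a median of 7319 and 9223 UMIs, against 6337 and 10846 in the low-score spots. The arrays use one set of spot barcodes, and 1458 of them were found in both lungs.

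The alveolus is lined by flat alveolar type 1 (AT1) cells, across which gas exchange takes place, and by cuboidal alveolar type 2 (AT2) cells. AT2 cells make surfactant, the mixture of lipids and proteins that lowers surface tension, store it in lamellar bodies and can renew both cell types after injury. Sftpc, Sftpa1 and Sftpd encode surfactant proteins and Lamp3 a protein of the lamellar body. Ager, Hopx and Rtkn2 mark AT1 cells. A capillary network, fibroblasts, pericytes and resident macrophages share the alveolar wall and its air space.

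The score was mostly Sftpc, which took 80.0% of the score's UMIs in the alveolar-rich spots of animal A and 80.2% in those of animal B. Ager followed with 8.34% in animal A and 6.50% in animal B, and Sftpa1 took 6.32% and 7.68%. A member spot held a median of 115 Sftpc UMIs in animal A (lowest 8, highest 255) and 148 in animal B (lowest 35, highest 535). In the low-score spots the medians were 44 and 24 UMIs, so Sftpc was low there without being absent. These values chose the spots and are given as a description only.

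The score itself had a median of 1.96% of UMIs in the members of animal A and 1.91% in those of animal B, against 1.05% and 0.337% in the low-score spots. The members of the mice were thus at nearly the same level, and the low-score spots of animal B were much lower than those of animal A. The last spot inside the top 10% stood at 1.802% in animal A and 1.622% in animal B, and the first spot outside at 1.802% and 1.621%. The border is a step on a continuous range, with no gap.

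Summed per section and scaled to 1000000 UMIs after TMM normalization (CPM), Sftpc stood at 16864 in the members and 7613 in the low-score spots of animal A, and at 16401 and 2260 in animal B. Ager stood at 1759 and 1047 in animal A, and at 1329 and 243 in animal B. In the primary tumours, tissue with no alveoli, Sftpc was at 0.296 CPM of raw UMIs in animal A, with a UMI in 0.161% of 2490 spots (exact 95% binomial interval 0.0438% to 0.411%). In animal B it was at 7.44 CPM and in 3.33% of 2372 spots (2.65% to 4.13%). Rtkn2 had the highest background of the score genes there, at 11.2 and 14.3 CPM.

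The label holds an AT2 part and an AT1 part, and each was read in spots chosen by the other. Among spots chosen by Ager, Hopx and Rtkn2 alone, edgeR's quasi-likelihood test with the mouse as a block called Sftpd higher than in the lowest 50% by that score (log2 fold change 1.29 ± 0.38 SE, adjusted p = 0.034). Its level was 126 against 98.4 CPM in animal A and 235 against 52.3 CPM in animal B. Sftpc had a log2 fold change of 1.33 ± 1.49 (adjusted p = 0.719), Sftpa1 of 1.34 ± 0.62 (adjusted p = 0.231) and Lamp3 of 1.22 ± 0.40 (adjusted p = 0.064), which did not pass. In that comparison 3.12% of all genes tested were called. The call of Sftpd did not hold with spots chosen by Ager alone (log2 fold change 1.31, adjusted p = 0.0651) or without the block (1.27, adjusted p = 0.918).

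Among spots chosen by Sftpc, Sftpa1, Sftpd and Lamp3, none of the 3 AT1 genes passed, in a comparison that called 0.178% of all genes. Ager had a log2 fold change of 1.42 ± 0.62 (adjusted p = 0.372), Hopx of 1.17 ± 0.45 (adjusted p = 0.300) and Rtkn2 of 1.01 ± 0.35 (adjusted p = 0.244). All 7 genes were higher in the chosen spots of both mice.

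Spot by spot, the parts overlapped in part, in classes that each hold 10% of a section. Of the 170 spots that led by AT2 genes in animal A, 31 also led by AT1 genes (18.2%), and in animal B it was 101 of 278 (36.3%). Of the spots that led by AT1 genes, 44 in animal A and 117 in animal B were members, while 36 and 10 lay in the low-score spots. Spots that led by AT2 genes were members in 150 and 259 cases. Across all spots of a section, Spearman's rho between the AT2 and AT1 shares was 0.38 in animal A (n = 1697 spots) and 0.75 in animal B (n = 2780). Both shares are fractions of the same spot total, and spots of one section are not replicates.

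**Figure D1:**
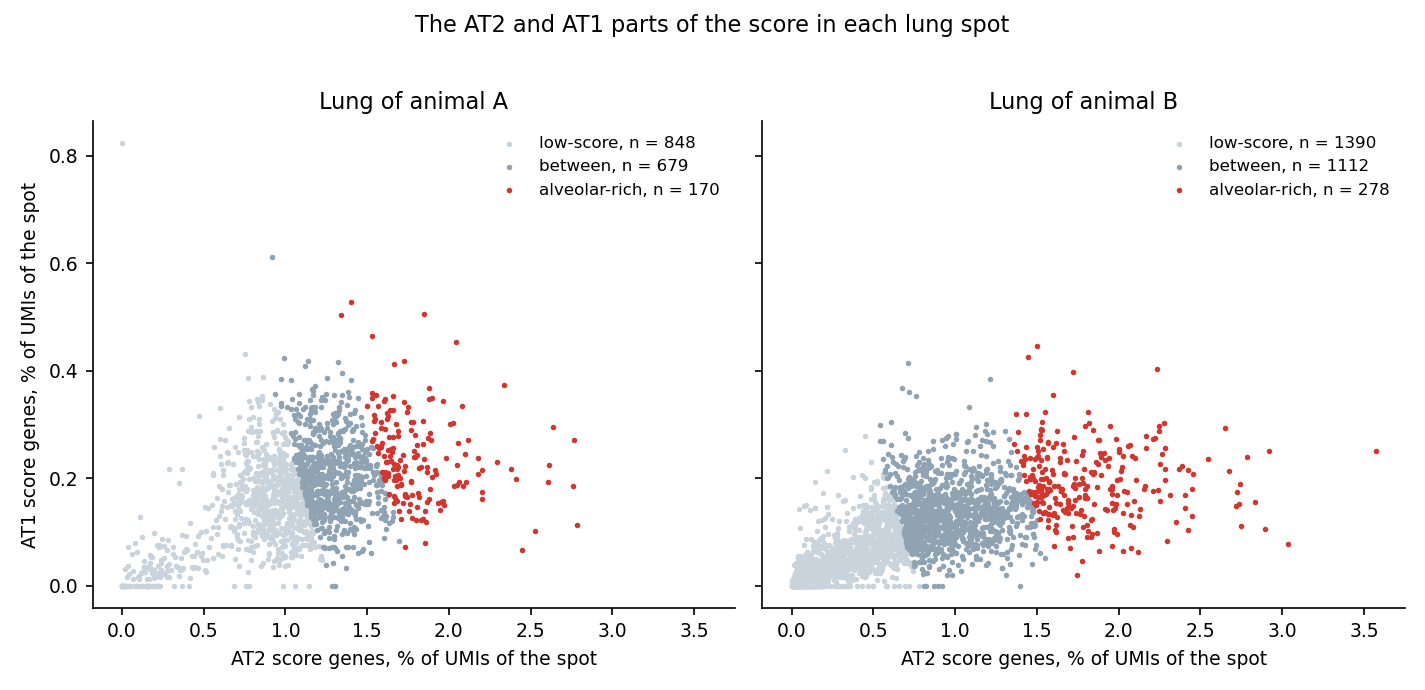
Each point is a lung spot, placed by the share of its UMIs on the AT2 score genes (horizontal axis, %) and on the AT1 score genes (vertical axis, %), with the 170 and 278 alveolar-rich spots in red. Members spread along the AT2 axis, and many spots with as much AT1 share as the members lie outside them.

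The members were clustered in space, a property that the score did not use. Of all neighbours of member spots, 33.8% were members in animal A (332 of 982) and 61.1% in animal B (992 of 1623), while members were 10.0% of each section. In animal A they fell into 55 patches, the largest of 41 spots, and 34 of these patches were single spots. In animal B they fell into 34 patches, and 201 of the 278 spots formed 1 patch. The score also fell off with distance. Spots that were not members but touched one had a median score of 1.39% and 1.25%, and spots 3 or more steps from any member 1.16% and 0.592%.

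Members were seldom among the spots richest in tumour transcripts, which were taken as the 10% of spots with the highest share of 4T1 tumour marker UMIs. In animal B, 0 of the 278 tumour-rich spots were members and 272 were in the low-score spots. In animal A, 8 of 170 were members and 107 were in the low-score spots. The median distance to the nearest tumour-rich spot was 6 steps for members and 2 for the low-score spots in animal B, against 3 and 2 in animal A. The distance to the edge of the section differed in direction between the mice. Members lay a median of 5 steps from it in animal A, where the low-score spots lay at 7, and 10 steps in animal B, where the low-score spots lay at 6. The position of 1 section per animal is a description with no test.

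**Figure D2:**
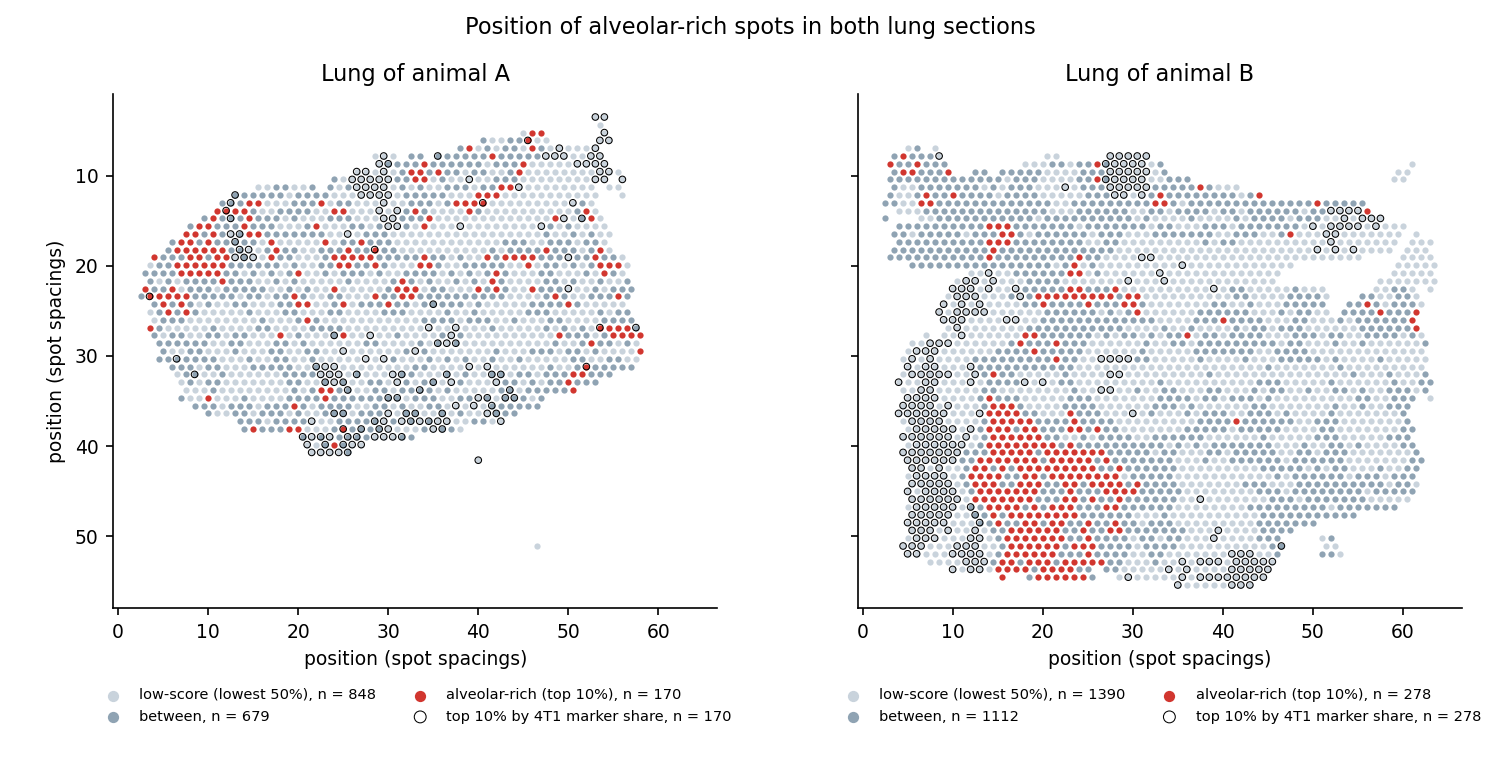
Every lung spot is drawn at its place on the array, in units of the distance between neighbouring spots, with alveolar-rich spots in red and the top 10% of spots by 4T1 marker share ringed in black. The members of animal A are scattered in 55 patches, while 201 of 278 members of animal B form one patch.

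Against the low-score spots, 308 of 12386 genes tested were called at an adjusted p under 0.05 (edgeR with the mouse as a block), or 2.49%, with 153 higher (1.24%) and 155 lower (1.25%). Of the 308, 302 moved the same way in both mice. The number of calls was not stable. It was 0 without the block (92 genes at an unadjusted p under 0.05) and 25 by DESeq2. Against the spots between the 50th and 90th percentile it was 0. It was 2 when tumour-marker spots were left out of the low-score spots. These are spots whose share of 4T1 marker UMIs was above the median of the section. Without them 396 of 848 low-score spots remained in animal A and 382 of 1390 in animal B. In simulated data, 55 of 64 genes changed 4-fold were recovered with the block and 0 of 64 without it. With the block, 11 of 66 genes changed 2-fold and 0 of 66 changed 1.5-fold were recovered, so smaller changes were mostly missed. What the count of 0 without the block means for the 308 genes was not tested. With 4 sums and the mouse as a block, 1 residual degree of freedom per gene remains, and the test leans on the spread shared by all genes. The score genes were left out of every count. Genes made by the same cells share spots with the score genes, so their rise describes what goes with a high score and is not evidence apart from the choice of spots.

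The genes with the largest increases were mostly of AT2 cells. Lyz1, a secreted lysozyme, stood at 217 CPM in the members and 101 in the low-score spots of animal A, and at 204 and 26.8 in animal B. It rose by a log2 fold change of 2.02 ± 0.37 (SE, adjusted p = 4.6e-05). Sfta2, a surfactant-associated secreted protein, stood at 73.4 and 27.7 CPM in animal A and at 88.6 and 15.1 in animal B (2.0 ± 0.33, adjusted p = 2.7e-06). Levels in the members were alike in both mice for these genes, and the gap to the low-score spots was wider in animal B. Slc34a2, the phosphate transporter of AT2 cells, stood at 906 and 422 CPM in animal A and at 748 and 112 in animal B (1.92 ± 0.52, adjusted p = 0.018).

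Cxcl15, a lung chemokine, was the most abundant of the leading genes, at 1029 and 524 CPM in animal A and 1012 and 148 in animal B (1.87 ± 0.55, adjusted p = 0.037). S100g, a calcium-binding protein, had a log2 fold change of 1.86 ± 0.35 and the sphingosine-1-phosphate phosphatase Sgpp2 of 1.89 ± 0.40. Of these leaders Sfta2 was also called when tumour-marker spots, or spots of heart, airway and smooth muscle, were left out of the low-score spots.

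**Figure D3:**
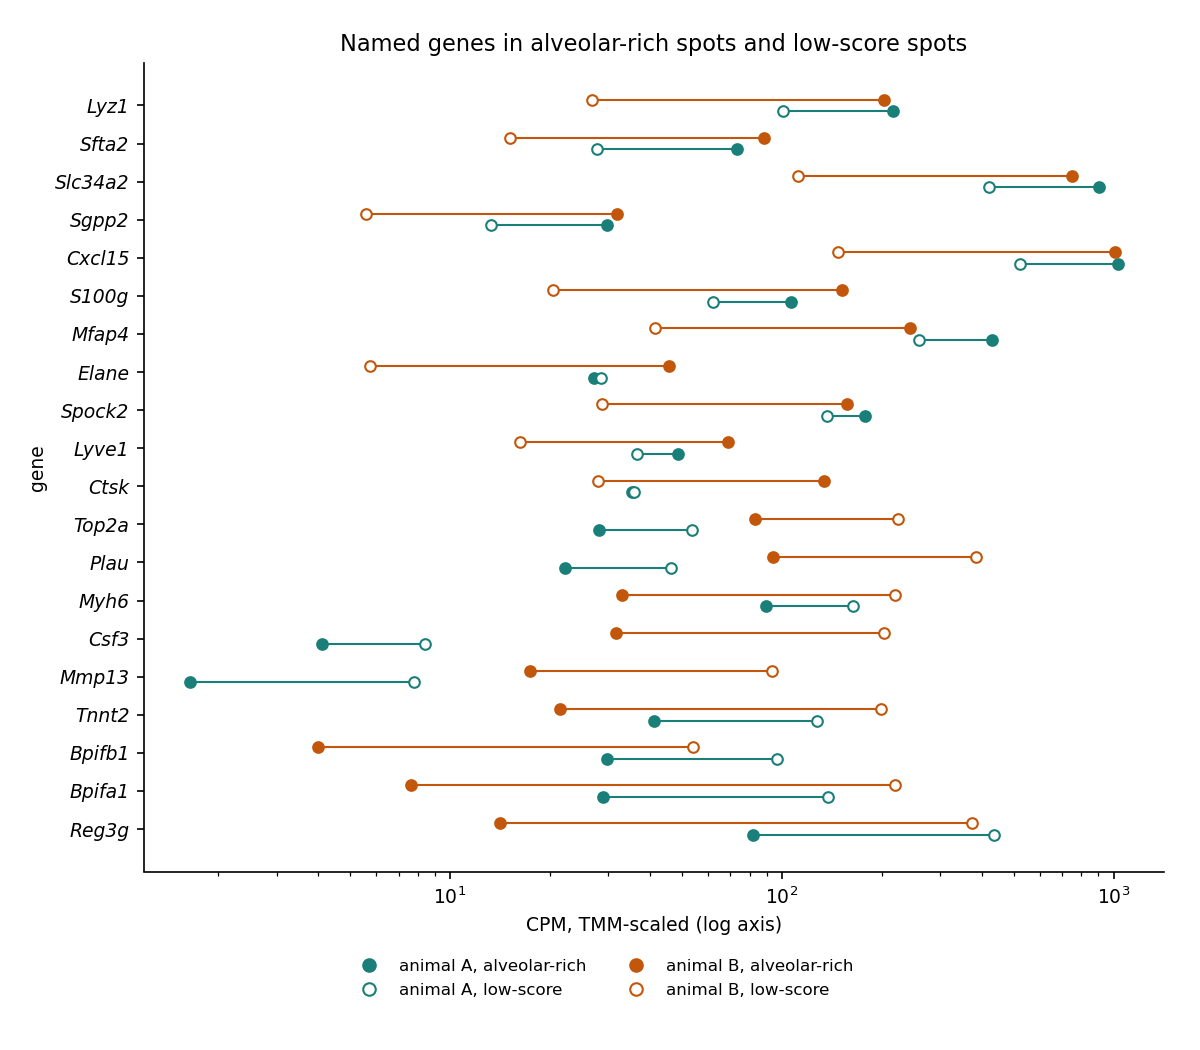
Levels of 20 named genes (CPM after TMM scaling, log axis) in the sum of the alveolar-rich spots (filled) and of the low-score spots (open) of animal A (green) and animal B (orange). Sfta2 and the other AT2 genes lie higher in the members of both mice, Elane and Ctsk only in those of animal B, and the airway and heart genes lie lower in both.

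The promoters of the leading AT2 genes are given from RefSeq (GRCm38.p6), as the 250 bases before the start of the gene and on the strand of the gene, because these genes rose together. Capitals mark the letters CTCAAG or their reverse complement CTTGAG, a motif bound by NKX2-1, the transcription factor that specifies lung epithelium.
Sfta2, chr17:35649458-35649707, plus strand: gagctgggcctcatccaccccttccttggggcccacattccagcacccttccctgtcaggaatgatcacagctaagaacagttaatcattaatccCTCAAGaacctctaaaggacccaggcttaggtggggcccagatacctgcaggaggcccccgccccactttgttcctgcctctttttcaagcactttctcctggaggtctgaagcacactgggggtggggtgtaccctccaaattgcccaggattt
Lyz1, chr10:117292869-117293118, minus strand: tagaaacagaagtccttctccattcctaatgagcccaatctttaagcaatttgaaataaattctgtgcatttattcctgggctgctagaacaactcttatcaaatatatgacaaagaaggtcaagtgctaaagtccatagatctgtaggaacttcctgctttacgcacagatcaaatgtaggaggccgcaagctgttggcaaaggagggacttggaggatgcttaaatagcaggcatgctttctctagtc
Slc34a2, chr5:53049103-53049352, plus strand: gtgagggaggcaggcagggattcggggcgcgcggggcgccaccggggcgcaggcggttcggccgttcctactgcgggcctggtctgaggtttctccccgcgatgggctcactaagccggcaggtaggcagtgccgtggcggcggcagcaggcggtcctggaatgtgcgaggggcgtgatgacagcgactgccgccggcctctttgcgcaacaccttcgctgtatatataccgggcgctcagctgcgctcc
The Sfta2 window holds 1 match, which begins 155 bases before the start, and the windows of Lyz1 and Slc34a2 hold none. Of the 15 AT2 list genes that rose, 13 had a window in the table and Sfta2 was the only one with a match, while 13.3% of all 32851 windows hold one. A match is a description of the letters and not a binding site.

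Of the AT2 list beyond the score, 28 of 30 genes were tested and 15 rose with none lower. The median log2 fold change was 1.35, beside -0.01 over all genes, and 26 of 28 were higher in both mice, where 26.9% of all genes were. Beside the leaders these included Napsa, a protease that processes surfactant protein B, the complement component Hc (1.73 ± 0.35), Lgi3, Muc1 and the endocytic receptor Lrp2. Nkx2-1 itself stood at 139 and 89.3 CPM in animal A and at 131 and 31.7 in animal B (1.35 ± 0.34, adjusted p = 0.0081). Abca3, the lipid transporter of the lamellar body, which was picked out after its values were seen, had a log2 fold change of 0.94 ± 0.37 and did not pass (adjusted p = 0.176). The median of the AT2 list stayed above 0 under all 11 other choices of spots, from 0.48 to 1.47, while the number of calls depended on that choice. Of the 28 genes, 15 were called with spots over 1000 genes, 14 against all other spots and 13 within depth quartiles. A score from AT1 genes alone called 6 and a score from AT2 genes alone 2. None of the 28 genes was called with the top 5%, the top 20%, equal weights or the spots between the 50th and 90th percentile, and 1 was called without tumour-marker spots or without heart, airway and smooth muscle spots.

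Of the 25 AT1 list genes, 9 rose and none fell, with a median log2 fold change of 1.01 and 23 higher in both mice. Without tumour-marker spots the median was 0.47, and against the spots between the 50th and 90th percentile 0.20, with 0 called in each. Spock2, a matrix proteoglycan, stood at 178 and 137 CPM in animal A and at 158 and 28.7 in animal B (1.43 ± 0.36, adjusted p = 0.0096). Cldn18, a tight junction protein, stood at 369 and 252 CPM and at 246 and 51.7 (1.40 ± 0.41, adjusted p = 0.033). The water channel Aqp5 (1.28 ± 0.33, adjusted p = 0.0096) and the basement membrane chain Col4a3 (1.38 ± 0.34, adjusted p = 0.0060) also rose. In animal A these AT1 genes differed by a log2 fold change of 0.38 to 0.70, so most of the size of the call came from animal B.

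Of 25 genes of surfactant lipid synthesis 1 was called, a share near the 2.49% of all genes. It was the fatty acid desaturase Scd1, at 284 and 157 CPM in animal A and 417 and 113 in animal B (1.37 ± 0.40, adjusted p = 0.036). Fasn, the fatty acid synthase, had a log2 fold change of 0.24 ± 0.39 (adjusted p = 0.882), and the median of the list was 0.23. Among 23 genes of ion and water transport, Slc34a2, the zinc and manganese carrier Slc39a8 (1.34 ± 0.32, adjusted p = 0.0059) and Aqp5 rose and none fell. The median was 0.24 in animal A and 1.41 in animal B (0.84 in the fit of both), and in that fit 0.09 without tumour-marker spots. Against airway-rich spots it was -0.26.

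Genes of the transitional epithelial state that follows alveolar injury had a median log2 fold change of 0.02 over 16 genes, with 1 higher and 1 lower. Orm1, an acute phase protein, rose, and Krt8, the keratin that marks this state but is also a tumour and airway keratin, fell, from 81.8 to 36.3 CPM in animal A and from 238 to 105 in animal B (-1.18 ± 0.35, adjusted p = 0.037). Lcn2, the most abundant of the list, had a log2 fold change of 0.96 ± 0.87 (adjusted p = 0.724) and is also a neutrophil gene.

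Genes of the other cells of the alveolar wall were mostly higher in the members, and few passed the test. Of 27 capillary endothelial genes, 25 were higher in both mice and the median log2 fold change was 0.86, but only 2 passed. Lyve1, a hyaluronan receptor, stood at 48.7 and 36.5 CPM in animal A and 69.0 and 16.3 in animal B (1.30 ± 0.34, adjusted p = 0.012), and the adhesion receptor Adgrl4 rose by 1.14 ± 0.34 (adjusted p = 0.038). Of 25 genes of endothelium in general none was called, and 24 were higher in both mice. The median was 0.29 in animal A and 1.46 in animal B (0.91 in the fit of both), and in that fit 0.24 without tumour-marker spots and 0.07 against the spots between the 50th and 90th percentile. Epas1, a hypoxia-inducible transcription factor abundant in endothelium, stood at 2037 and 1573 CPM in animal A and at 951 and 273 in animal B (1.09 ± 0.64, adjusted p = 0.46). The capillary median was 0.15 without tumour-marker spots and -0.04 against the spots between those percentiles.

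Of 28 fibroblast and pericyte genes, 7 rose, none fell and 23 were higher in both mice. The median was 0.40 in animal A and 1.57 in animal B (0.97 in the fit of both), and in that fit 0.44 without tumour-marker spots and 0.25 against the spots between the 50th and 90th percentile, with 0 called in each. Mfap4, a protein of elastic fibres, stood at 430 and 259 CPM in animal A and at 243 and 41.3 in animal B (1.64 ± 0.42, adjusted p = 0.0096). Tcf21, a transcription factor of lung mesenchyme, rose by 1.36 ± 0.34 (adjusted p = 0.0074) and Limch1 by 1.35 ± 0.33 (adjusted p = 0.0072). The pericyte genes Higd1b, Cox4i2, Notch3 and Gucy1a1 were the other 4.

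Of 22 genes of interstitial collagen and scar matrix none was called. The median was -0.20, with 0.02 in animal A and -0.17 in animal B, and it was above 0 without tumour-marker spots (0.36), against the spots between the 50th and 90th percentile (0.34) and without heart, airway and smooth muscle spots (0.12). The abundant Fn1 stood at 717 and 622 CPM in animal A and at 1245 and 1153 in animal B. Col4a3 and Col4a4 were the only 2 of 20 basement membrane genes called. Of 15 elastic fibre genes Mfap4 rose, while Fbln2 (-1.62 ± 0.38, adjusted p = 0.0043) and the crosslinking enzyme Loxl4 (-1.82 ± 0.42, adjusted p = 0.0032) fell. Without tumour-marker spots in the low-score spots, Fbln2 stood at 0.22 and Loxl4 at 0.06 on the log2 scale.

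Of 45 genes of signals between these cells, 1 rose and 2 fell. Bmp6, a growth factor of the BMP family, stood at 139 and 86.7 CPM in animal A and at 63.1 and 13.8 in animal B (1.44 ± 0.33, adjusted p = 0.0031). Wnt7b fell from 38.3 to 12.4 CPM in animal A and from 168 to 47.9 in animal B (-1.74 ± 0.35, adjusted p = 4.0e-04). Etv4, a transcription factor downstream of FGF signalling, fell by 1.75 ± 0.39 on the log2 scale (adjusted p = 0.0015). Of the complement and collectin genes, Hc, C7 (1.51 ± 0.40, adjusted p = 0.014) and C6 (1.34 ± 0.36, adjusted p = 0.015) rose and Cfd and Masp1 fell, of 20 tested. Of 24 detoxification and antioxidant genes, 1 was called higher and 2 lower. Fmo1, a flavin monooxygenase that detoxifies drugs, rose (1.26 ± 0.34, adjusted p = 0.019), and Gsta4 fell (-1.16 ± 0.33, adjusted p = 0.032).

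**Figure D4:**
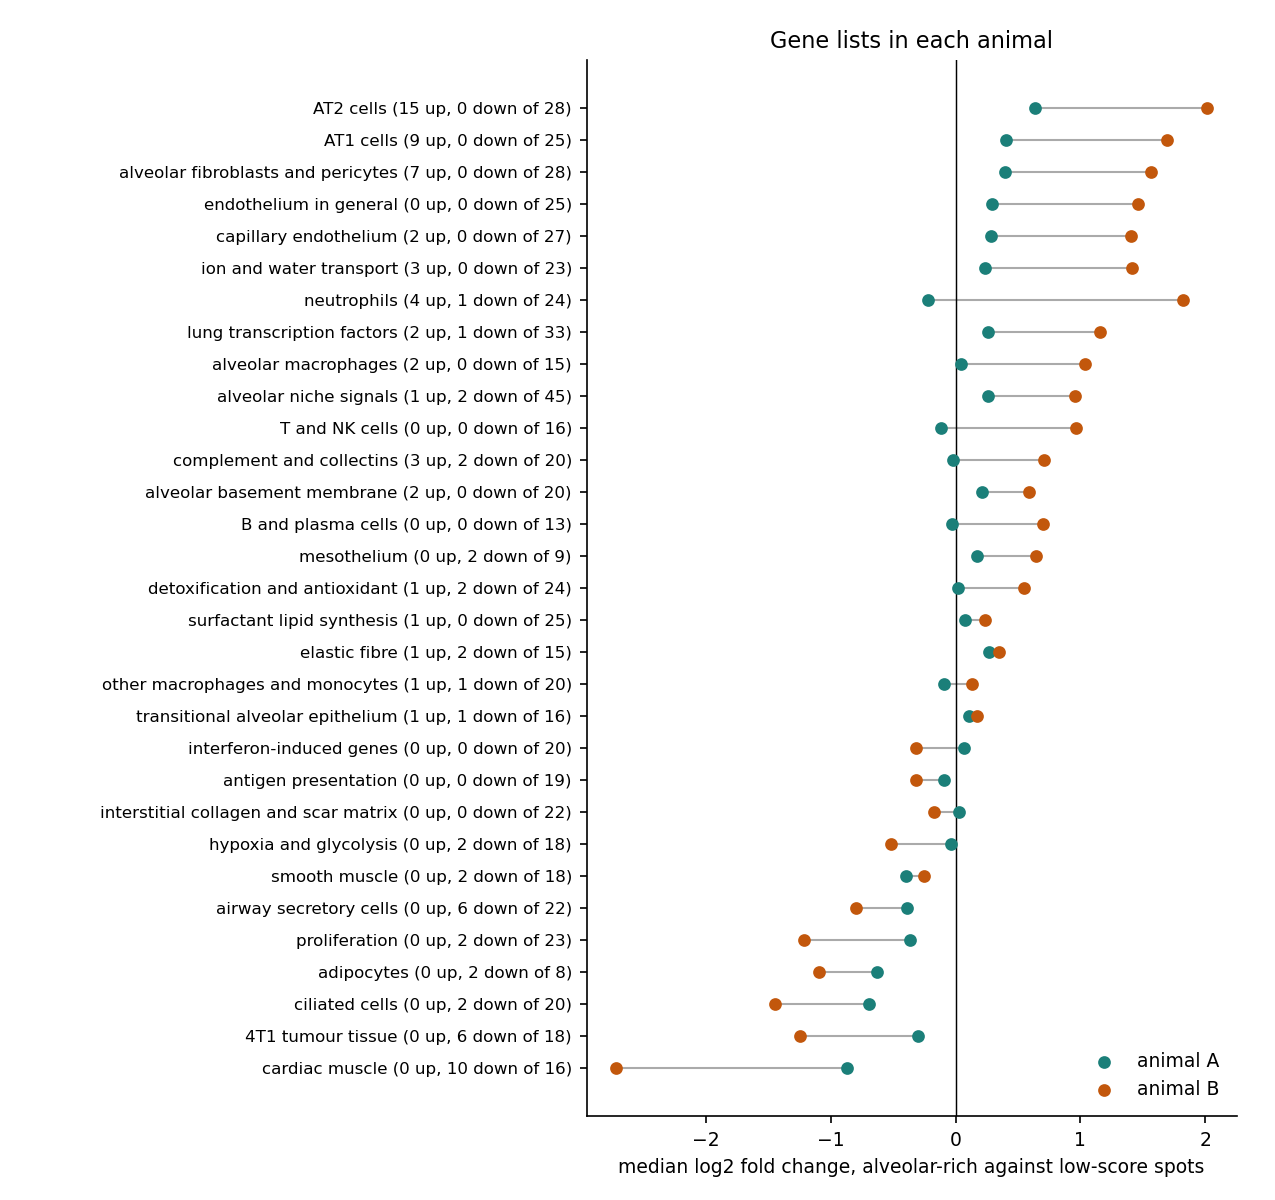
For each of 31 gene lists, the median log2 fold change of alveolar-rich spots against the low-score spots in animal A (green) and animal B (orange), with the number of genes called higher and lower of those tested beside its name. Lists of the alveolar wall lie above 0 in both mice, heart, ciliated and tumour lists below 0 in both, and the neutrophil list on opposite sides.

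Macrophage genes moved one by one. Of 15 genes of alveolar macrophages, which clear surfactant, Ctsk and Atp6v0d2 were called higher. Ctsk, a protease, stood at 35.5 and 35.8 CPM in animal A and at 134 and 28.0 in animal B (1.23 ± 0.34, adjusted p = 0.023), so its call rests on animal B alone. Of 20 genes of other macrophages and monocytes, Gpnmb, a lysosomal glycoprotein of lipid-laden macrophages, rose from 7.62 to 14.0 CPM in animal A and from 26.8 to 109 in animal B (1.61 ± 0.36, adjusted p = 0.0023).

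Neutrophil genes went opposite ways in the mice. The list took 8.53% of UMIs in the members and 9.59% in the low-score spots of animal A, and 6.32% and 2.02% in animal B. Its median log2 fold change was -0.22 in animal A and 1.82 in animal B, and 19 of 24 genes had opposite signs. The 4 called higher are Mpo, Elane and Prtn3, proteases and peroxidase of the primary granule that are made in precursors of the neutrophil, and Cebpe, a transcription factor of those precursors. Mpo stood at 56.9 and 44.9 CPM in animal A and at 48.6 and 4.96 in animal B (1.82 ± 0.36, adjusted p = 3.0e-04). Elane stood at 27.2 and 28.5 CPM in animal A and at 45.7 and 5.72 in animal B, so that only animal B gave its change. The inducible cyclooxygenase Ptgs2 fell. With tumour-marker spots left out of the low-score spots, the median of the neutrophil list was -0.22.

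Genes of lymphocytes, antigen presentation and interferon response gave no call. These were 0 of 16 T and NK cell genes, 0 of 13 B and plasma cell genes, 0 of 19 antigen presentation genes and 0 of 20 interferon-induced genes, where 2.49% of all genes were called, so counts of 0 in lists of this size are near that share. Ccl5 was at 44.5 and 51.0 CPM in animal A and at 19.6 and 24.4 in animal B. Cd74, the invariant chain, was at 1652 and 1376 CPM in animal A and at 1042 and 1238 in animal B.

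Some genes of the airway, the heart and the tumour fell in the members. Of 22 airway secretory genes 6 fell and none rose, and 7 had opposite signs in the mice. Reg3g, an antibacterial lectin, stood at 81.6 CPM in the members and 437 in the low-score spots of animal A, and at 14.2 and 375 in animal B (-3.52 ± 0.45, adjusted p = 3.6e-11). Bpifa1, a secreted airway protein, stood at 28.9 and 138 CPM and at 7.62 and 220 (-3.51 ± 0.40, adjusted p = 1.1e-14), and its relative Bpifb1 fell by 2.58 ± 0.37 on the log2 scale. Of 20 ciliated cell genes 2 fell, Foxj1 and Ccdc153, and 18 were lower in both mice, where 29.6% of all genes were. Sec14l3, the most abundant of them, had a log2 fold change of 0.36 ± 0.50 (adjusted p = 0.854), with opposite signs in the mice.

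Of 16 heart muscle genes 10 fell and the median log2 fold change was -1.85. Tnnt2, cardiac troponin, stood at 41.2 and 127.9 CPM in animal A and at 21.4 and 200 in animal B (-2.44 ± 0.36, adjusted p = 6.6e-08). The list took 0.0270% of UMIs in the members and 0.0537% in the low-score spots of animal A, and 0.0128% and 0.0905% in animal B. Without the spots of heart, airway and smooth muscle in the low-score spots, the medians of these lists were above 0 (1.20 for heart, 0.91 for airway secretory and 1.14 for ciliated genes), and Reg3g and Bpifa1 stood at log2 fold changes of 0.01 and 0.43. The spots left out were the top 10% by the share of the heart, airway or smooth muscle lists, and members were not filtered. The lists read here thus chose the spots left out, and a shift of their medians upwards was built in.

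Of 18 genes of 4T1 tumour tissue 6 fell, with a median of -1.12, and 5 had opposite signs in the mice. Csf3, the granulocyte growth factor, stood at 4.12 and 8.40 CPM in animal A and at 31.6 and 204 in animal B (-2.32 ± 0.41, adjusted p = 3.2e-05). The collagenase Mmp13 stood at 1.65 and 7.81 CPM and at 17.4 and 93.2 (-2.39 ± 0.44, adjusted p = 5.0e-05), and Plau, the urokinase, fell by 1.61 ± 0.38 on the log2 scale. Both mice lay on the same side, with lower levels in animal A. Of 23 proliferation genes Top2a (-1.21 ± 0.35, adjusted p = 0.030) and Cenpf fell, and 20 were lower in both mice. Of 18 genes of hypoxia and glycolysis Egln3 and Car9 fell. Car9, carbonic anhydrase 9, was at 9.07 against 140 CPM in animal B, but at 3.30 against 2.34 in animal A, the other way. Without the tumour-marker spots the median of the tumour list was 0.49 and that of the proliferation list 0.10. The tumour list chose the spots left out and members were not filtered, so the rise of its median was built in.

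Over 10 bins of the score, each of 10% of the spots of a section, the lists changed at different places. The AT2 list beyond the score climbed over the whole range in animal B, from 0.237% of UMIs in bin 1 to 1.03% in bin 10. In animal A it went from 0.402% to 0.593% in the first step and then slowly to 0.849%. The capillary list levelled off. It stood at 0.576% in bin 2 and 0.669% in bin 10 of animal A, and at 0.440% in bin 7 and 0.437% in bin 10 of animal B. Scar matrix was lowest in the middle and came up again at the top, from 0.240% in bin 9 to 0.301% in bin 10 in animal A and from 0.426% to 0.545% in animal B. These are sums of 1 section each, with no test.

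**Figure D5:**
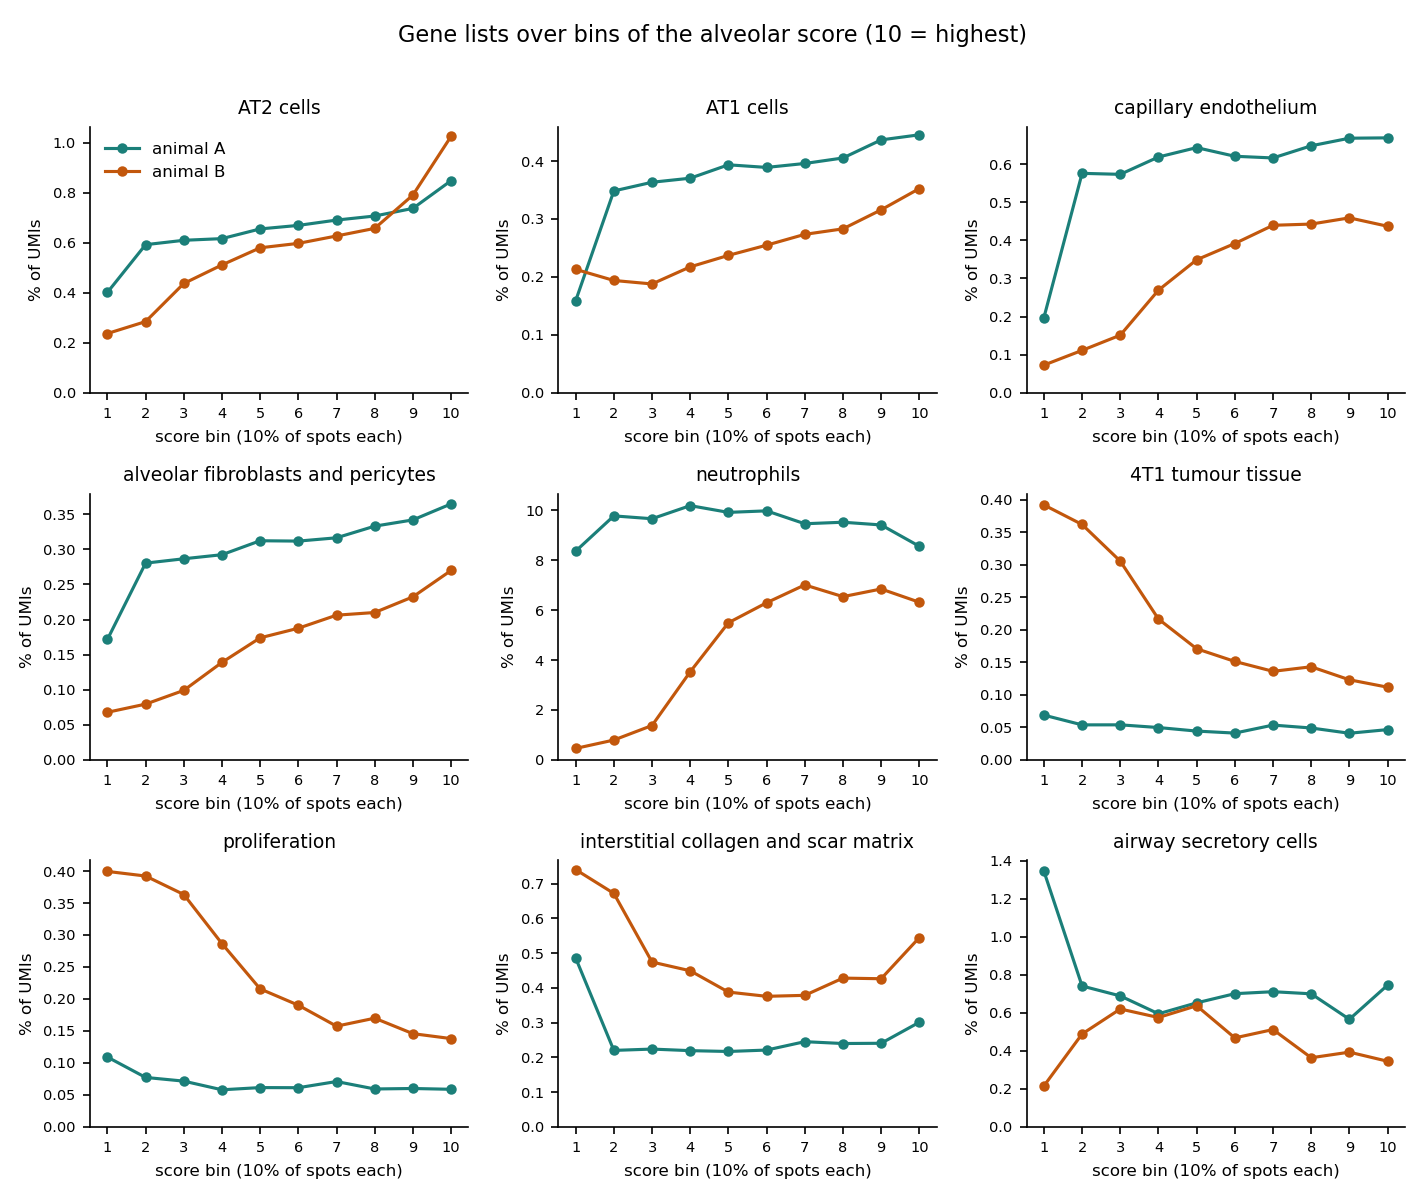
Share of UMIs (%) on 9 gene lists in each bin of 10% of the spots by score, for animal A (green) and animal B (orange), with the highest scores in bin 10 (169 spots in animal A, 1 fewer than the alveolar-rich class, and 278 in animal B). AT2, AT1 and fibroblast lists increase towards bin 10, and the tumour and proliferation lists decrease from bin 1 in animal B.

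The airway is the other epithelium of the lung, and more genes were called against it than against the low-score spots. In the fit of both mice, the AT2, AT1 and capillary lists differed by less. Airway-rich spots were the top 10% by the share of Scgb3a2, Cyp2f2, Muc5b, Foxj1, Tppp3 and Ccdc153, with Scgb1a1 and Scgb3a1 not analysed here. Spots in both classes were left out of both, which left 156 and 267 spots of each. Of 11493 genes, 2396 were called (20.8%), 951 higher (8.27%) and 1445 lower (12.6%) in the alveolar-rich spots. Without the block 383 were called, 3 of them higher, and by DESeq2 544. Of 28 AT2 genes 20 were higher and 2 lower, of 25 AT1 genes 14 were higher and 2 lower, and of 27 capillary genes 14 were higher and 1 lower. Their median log2 fold changes were 0.62, 0.58 and 0.40. In animal A alone, the AT1 median was larger than against the low-score spots (0.51 against 0.40), as was the capillary median (0.57 against 0.29). The AT2 median was smaller there (0.45 against 0.64). In animal B all of them were smaller, at 0.75 against 2.02 for AT2, 0.54 against 1.69 for AT1 and 0.45 against 1.40 for capillary genes. Of 24 neutrophil genes 20 were higher and none lower, with a median log2 fold change of 0.49.

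Gpnmb had the largest increase, at 14.5 CPM in alveolar-rich and 9.10 in airway-rich spots of animal A and at 110 and 13.5 in animal B (2.59 ± 0.29, adjusted p = 3.5e-08). Scel, sciellin of flat epithelia, stood at 41.6 and 17.3 CPM and at 27.0 and 6.75 (1.63 ± 0.30, adjusted p = 9.7e-05). All 17 ciliated cell genes tested outside the score were lower, as were 18 of 19 airway secretory genes and 16 of 18 smooth muscle genes, the muscle that wraps airways. Bpifa1 stood at 26.2 against 509 CPM in animal A and at 6.66 against 1904 in animal B (-6.62 ± 0.33, adjusted p = 2.4e-15). Trp73, a transcription factor of ciliated cells, was at 1.81 against 41.9 CPM in animal A, and had no UMI in the alveolar-rich sum of animal B, where airway-rich spots had 41.0 CPM. Of 24 detoxification genes 20 were lower and 2 higher.

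Neutrophil-rich spots were the top 10% by S100a8, S100a9, Ly6g, Camp, Ngp, Ltf, Retnlg and Mmp8, and after leaving out 26 shared spots in animal B there were 170 and 252 spots of each class. Of 10627 genes 1910 were called (18.0%), 778 higher (7.32%) and 1132 lower (10.7%) in the alveolar-rich spots. Without the block none was called (993 at an unadjusted p under 0.05), and by DESeq2 385. Of 28 AT2 genes 21 were higher and 1 lower, with Cxcl15 at 956 and 335 CPM in animal A and at 914 and 313 in animal B (1.53 ± 0.14, adjusted p = 9.2e-11). Here the mice gave the same fold.

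Of 27 capillary genes 3 were higher and 5 lower. Their median log2 fold change was 0.23 in animal A and -0.54 in animal B, and 16 of the 27 had opposite signs. Of 16 scar matrix genes 12 were higher, of 20 basement membrane genes 12 and of 14 elastic fibre genes 8, with none lower. Markers of other cells moved with them, as 5 of 14 tumour genes and 7 of 21 proliferation genes were higher with none lower, and 8 of 18 genes of other macrophages and monocytes were higher and 3 lower. Their part in the result was not tested. The procollagen peptidase Adamts2 stood at 38.3 and 18.7 CPM in animal A and at 46.9 and 7.40 in animal B (1.89 ± 0.28, adjusted p = 2.4e-06), and Tnc, tenascin C, which is on both the scar matrix and the tumour list, at 13.8 and 4.66 and at 87.6 and 28.5 (1.61 ± 0.24, adjusted p = 2.2e-06). The largest decreases beyond the score were Gm9733, Csta3, Treml4 and Dock11, with log2 fold changes of -1.33, -1.29, -1.28 and -1.27. The comparisons share the alveolar-rich sums.

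Between the mice, members were alike in some genes and unlike in others, within AT2 genes too. With 1 sum per mouse there is no test, and values are CPM of raw UMIs with exact Poisson intervals that cover counting error only. Cxcl15 was at 998 CPM (943 to 1055) in animal A and 996 (959 to 1034) in animal B, and Lyz1 at 210 (186 to 237) and 200 (184 to 218). S100g was lower in animal A, at 103 (86.1 to 122) against 150 (136 to 165), and B2m, a component of MHC class I, was alike at 1495 (1428 to 1564) and 1544 (1499 to 1591). Gpnmb was at 13.6 (7.92 to 21.8) and 108 (95.7 to 120), Spp1, osteopontin, at 63.2 (50.0 to 78.7) and 412 (389 to 436), and the metallothionein Mt1 at 172 (150 to 196) and 837 (804 to 872). Higher in animal A were the immunoglobulin gene Igkc, at 333 (301 to 366) against 60.0 (51.3 to 69.8), and the club cell enzyme Cyp2f2, at 926 (873 to 981) against 248 (230 to 267).

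By lists, the members of animal B held more UMIs on scar matrix genes (5445 against 3014 CPM), proliferation genes (1380 against 602) and tumour genes (1117 against 468). Those of animal A held more on neutrophil genes (85314 against 63179), capillary genes (6650 against 4371) and airway secretory genes (7415 against 3454). Mouse and depth of the section cannot be told apart here, since each animal gave 1 lung section.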

How the data were processed

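Spatial transcriptomes of 2 lung and 2 primary tumour sections were analysed, 1 of each from 2 mice. Values are UMI counts as deposited by the authors, unnormalized, for each gene in each spot, beside the spot positions. The submitters' processing notes name Space Ranger 2.0.0 and mm10. A model for these sections is not given in the sources used here. Counts were summed per class of spots and section in Python 3.11.15 (numpy 2.4.6, scipy 1.17.1, pandas 2.3.3) and tested in R 4.3.3 by edgeR 4.0.16 (filterByExpr, TMM, quasi-likelihood, Benjamini-Hochberg adjustment over all genes tested, threshold 0.05). The mouse was a block, since both sums come from 1 section of 1 animal. Deviations of the sums of a mouse correlated at 0.64. DESeq2 1.42.0 and other choices of spots were alternatives, and the procedure was tested on simulated data. CPM of class comparisons are scaled by TMM, and folds per mouse have 0.5 counts added.

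The members, the 31 lists (662 genes, 635 in the files) and the tests were chosen with earlier results of these data known. Named genes are the 6 largest increases and decreases called, with a mean of at least 20 CPM and one direction in both mice, up to 3 called per list, the 2 most abundant where fewer than 2 were called, and 4 each way for the airway-rich and neutrophil-rich comparisons. Between mice, genes come from the 12 largest differences each way at a mean CPM of 50 or more. Cxcl15, Lyz1, S100g and B2m, given beside them, were instead taken from the named genes of the comparison with the low-score spots. Intervals cover 95%. Some genes that the rule picks are not reported here. Repeated symbols were kept apart by identifier. No cell makeup was estimated, and no doublet caller was run. Values of p rest on 2 animals and lean on the spread shared by all genes. They do not measure how far a single gene differs between the animals. Elane and Car9 were called although their folds had opposite signs in the mice.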

Additional observations from a re-analysis of the deposited data

How the results depend on the processing

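The number of calls changed with most choices, and folds turned over for some genes when spots of tumour or other tissues were left out. Spots were left out by the share of the tumour, heart, airway and smooth muscle lists, from the low-score spots only. A shift upwards of genes on those lists was thus built in. For other genes the cause was not tested. With the members against the low-score spots, 308 genes were called, and 0 without the replicate block (92 at an unadjusted p under 0.05), 25 by DESeq2 (24 of them among the 308), 2 with the top 5% (Bpifa1 and Reg3g), 13 with the top 20% and 0 against spots between the 50th and 90th percentile (974 unadjusted). It was 2 without tumour-marker spots in the low-score spots (Sfta2 and Pln), 11 without heart, airway and smooth muscle spots, 22 with the score from AT2 genes, 30 with score genes weighted equally and 169 within depth quartiles. It was 276 with no filter, 254 against all other spots, 382 with the AT1 score, of which 189 were shared, and 329 over 1000 genes. Genes called higher were 4 of 25 by DESeq2, 3 of 22 with the AT2 score and 0 with the top 5%, the top 20% or equal weights. They were 75 of 169 within depth quartiles and 163 of 329 over 1000 genes. Against airway-rich spots, 2396 became 383 without the replicate block and 544 by DESeq2, and against neutrophil-rich spots 1910 became 0 and 385. Sftpd in spots chosen by AT1 genes had a log2 fold change of 1.27 without the replicate block and 1.31 by Ager alone, both no longer past the threshold. With the next ring of spots counted, 27.0% and 55.1% of neighbours were members.

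Over the named genes, 768 of the recomputed values were classed as the same, 434 kept direction only and 60 changed direction. A further 3 were classed as stronger and 10 as moved, the 10 all with 1 mouse left out. Of the 768, 90 come from leaving out animal A and 80 from leaving out animal B. With 1 mouse no test can be fitted, so those have no side of the threshold, while the rest kept direction and side. The log2 fold changes that changed direction were the following. Without heart, airway and smooth muscle spots in the low-score spots, Reg3g 0.012, Bpifa1 0.43, Bpifb1 0.89, Tnnt2 0.19, Cd9 -0.016, Ccdc153 0.92, Tppp3 1.06, Cnn1 0.67, Tagln 0.83, Myl7 1.59, Myh6 1.66 and Fabp4 0.54. Against spots between the 50th and 90th percentile, Bpifb1 0.23, Lcn2 -0.018, Mrc1 0.20, Ccl5 0.083, Cd3d -0.23, Sec14l3 -0.059, Tagln 0.50, Cald1 0.16, Lipe -0.0036, Fabp4 0.12 and Ifitm3 -0.10. Without tumour-marker spots in the low-score spots, Mmp13 0.076, Csf3 0.20, Loxl4 0.056, Fbln2 0.22, Mrc1 0.53, Cd3d -0.37, Igkc -0.11, B2m 0.068, Sec14l3 -0.76, Cald1 0.34, Lipe -0.012, C3 -0.10, Plau 0.37, Car9 0.16, Ifitm3 -0.095 and Bst2 0.13. With the AT1 score, Fasn -0.20, Lgals3 0.16, Igkc -0.43, Cd74 -0.30 and Fn1 -0.11. With the top 20%, Lgals3 0.011 and Cd74 -0.069. With genes weighted equally, Lgals3 0.057, Igkc -0.49, Cd74 -0.17, Tppp3 0.038 and Fn1 -0.0091. With DESeq2, Cd9 -0.0085 and Cd74 -0.044. With no filter, Cd9 -0.024 and Cd74 -0.059. Without the replicate block, Igkc -0.26. With spots over 1000 genes, Cd74 -1.5e-05. Against all other 90%, Cald1 0.00095. One mouse at a time, Elane ranged from -0.051 to 2.997 and Car9 from -3.92 to 0.60. A count of calls could not be fitted with 1 mouse, and the score from Sftpb was not analysed here.

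With 2 animals, 1 section each and no lung without a tumour, these values describe these sections. The low-score class is a mixture of airway, heart, tumour and less alveolar-rich lung, and differs in makeup between the mice. Depth limits the low genes: Mmp13 and Csf3 in animal A rest on few UMIs.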
